A study of Homo sapiens with 4 samples.

Results

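Promoters of CARM1 and the other protein arginine methyltransferases were examined by ATAC-seq in HEK293T cells with and without MORC2. The assay reads out where chromatin is open to cutting by Tn5, a transposase that leaves sequencing adaptors behind. HEK293T is an aneuploid human embryonic kidney line that carries the SV40 large T antigen. The members were the 9 rows of the promoter count table whose symbol was CARM1, PRMT1, PRMT2, PRMT3, PRMT5, PRMT6, PRMT7, PRMT8 or PRMT9, out of 28775 rows. CARM1 was chosen because its promoter was among those lower in the knockout in these same libraries, where it held rank 5 by p among promoters with a negative change, so its own change is given as a description with no test. The other 8 members were listed by family name. There were 2 wild-type (WT) libraries and 2 MORC2 knockout (KO) libraries, with no treatment named in the labels. KO cells were bulk edited pools and not clones, and each KO replicate was made with its own guide RNA, so guide and replicate cannot be told apart. MORC2 is a GHKL-type ATPase of chromatin that acts with the HUSH silencing complex.

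Protein arginine methyltransferases transfer methyl groups from S-adenosylmethionine to arginine side chains of histones, RNA-binding proteins and transcription factors. Type I enzymes (CARM1, PRMT1, PRMT2, PRMT3, PRMT6 and PRMT8) make asymmetric dimethylarginine, type II enzymes (PRMT5 and PRMT9) make symmetric dimethylarginine, and the type III enzyme PRMT7 makes monomethylarginine. CARM1 is recruited by p160 coactivators to hormone-responsive genes and methylates histone H3 and the coactivators themselves.

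The sequences just upstream of 4 members are shown first. These members gave the lower promoter (CARM1), the higher promoter (PRMT6), the least accessible promoter (PRMT8) and, level with PRMT1, the most accessible one (PRMT5). Each is the stretch of 250 bases before the start of the gene, 5′ to 3′ on the strand of the gene, from RefSeq on GRCh38.p14. The counts were made on another assembly, so these coordinates place the sequence and not the counted fragments. Capitals mark GC boxes (GGGCGG on either strand) and CCAAT boxes (CCAAT on either strand, ATTGG when read on the other).
CARM1: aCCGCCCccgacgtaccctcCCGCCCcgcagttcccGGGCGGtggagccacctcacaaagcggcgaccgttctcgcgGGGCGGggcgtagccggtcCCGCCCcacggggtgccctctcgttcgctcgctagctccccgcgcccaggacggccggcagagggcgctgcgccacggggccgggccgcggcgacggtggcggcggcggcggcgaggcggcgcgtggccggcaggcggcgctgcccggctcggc
PRMT6: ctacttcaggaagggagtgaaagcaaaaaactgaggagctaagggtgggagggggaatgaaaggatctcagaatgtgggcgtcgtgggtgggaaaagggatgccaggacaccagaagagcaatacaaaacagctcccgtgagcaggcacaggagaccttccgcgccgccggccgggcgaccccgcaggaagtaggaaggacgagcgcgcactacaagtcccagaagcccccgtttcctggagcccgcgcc
PRMT8: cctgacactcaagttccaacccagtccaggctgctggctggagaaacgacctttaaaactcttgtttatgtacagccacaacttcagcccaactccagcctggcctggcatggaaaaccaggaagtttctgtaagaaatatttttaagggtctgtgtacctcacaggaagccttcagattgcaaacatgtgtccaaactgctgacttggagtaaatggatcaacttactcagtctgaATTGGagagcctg
PRMT5: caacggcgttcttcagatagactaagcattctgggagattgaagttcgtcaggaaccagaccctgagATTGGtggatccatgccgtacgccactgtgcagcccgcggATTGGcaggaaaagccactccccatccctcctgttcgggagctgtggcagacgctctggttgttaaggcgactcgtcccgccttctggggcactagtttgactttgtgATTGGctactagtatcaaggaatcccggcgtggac
The CARM1 stretch lies at chr19:10871303-10871552 on the plus strand, that of PRMT6 at chr1:107056424-107056673 on the plus strand, that of PRMT8 at chr12:3381099-3381348 on the plus strand and that of PRMT5 at chr14:22929377-22929626 on the minus strand.

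All 9 members matched a RefSeq promoter window of 300 bases, of which 250 lie before and 50 after the start. CARM1 stood at one end of the family in base composition. Its window was 82.3% G and C and held 56 CpG dinucleotides, against medians of 58.7% and 14 over 35116 such windows, which put it at percentile 98.9 for G and C and 99.7 for CpG. PRMT8, an enzyme anchored to the plasma membrane and known mainly from brain, stood at the other end, with 47.0% G and C and 1 CpG, at percentile 4.0 for CpG. PRMT3 (75.0% and 48 CpG), a cytosolic enzyme that methylates the ribosomal protein RPS2, was next to CARM1, followed by PRMT2 (72.0% and 36). PRMT9 (66.3% and 33), PRMT7 (65.7% and 33), PRMT6 (63.0% and 25), PRMT1 (62.0% and 22) and PRMT5 (58.0% and 20) lay between. The start in the listed PRMT1 window lies 1118 bases from the first base of the gene, and CARM1, PRMT7 and PRMT8 each have 2 listed windows, of which the one at the gene's first base was used.

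Short motifs were searched on both strands of the windows. The GC box GGGCGG, which Sp1 binds, was found in 6 of the 9 members and in 45% of all windows, with 5 matches in CARM1 and 3 in PRMT2. The CCAAT box was found in PRMT5 (3 matches), PRMT1 (2) and PRMT8 (1) and in 34.6% of all windows. The YY1 motif was found in PRMT1 and PRMT5 and in 0.849% of all windows, the NRF1 motif in PRMT2 alone with 3 matches and in 5.78%, and the ETS motif CCGGAAG in PRMT3 and in 10.3%. TATAAA was found in 11.5% of windows, and its letters were not in those of the members. PRMT6 held no match to any of these motifs. A match is a run of letters and not a bound site.

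The promoter count totalled between 9435801 and 15152636 fragments per library, KO replicate 2 being the deepest. Mitochondrial rows took 20.6% of the count in that library and 31.8% to 35.1% in the other 3. The members together contributed 4250 and 4106 fragments to WT replicates 1 and 2 and 4961 and 7807 to KO replicates 1 and 2. Values below are CPM, the count scaled to library size after TMM scaling. The study describes a promoter as a window of 2 kb around the start of a gene, so levels are compared between members as CPM per window of equal width. The promoter of MORC2 itself had 25.7 and 29.6 CPM in WT and 37.0 and 37.5 in KO, with a fitted log2 ratio of 0.43 (SE 0.087, adjusted p = 0.000279 in edgeR's quasi-likelihood test). A promoter count does not read the edited site, so this does not check the knockout. Promoters of 6 genes associated with HEK293T cells had a median of 16.0 CPM (5.70 to 79.2), and those of 8 genes of other cell types had a median of 3.80 (1.55 to 16.9), ranges that overlap.

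Levels in the family fell into 3 tiers. PRMT5, which with WDR77 forms the methylosome that methylates Sm proteins, and PRMT1, the source of most asymmetric dimethylarginine in cells, were the most accessible. Over the 4 libraries both had a mean of 87.6 CPM, with a range of 79.3 to 91.5 for PRMT5 and 83.0 to 96.4 for PRMT1, which overlap. The range of PRMT1 did not overlap that of the next member, and its mean was 1.78 times as high. The middle tier ran from PRMT9 (49.2), PRMT6 (49.0), PRMT7 (46.9), PRMT2 (45.3) and PRMT3 (42.5) down to CARM1 (40.9, range 34.9 to 52.6), and each neighbouring pair in that order overlapped. CARM1 in turn lay 13.0 times above PRMT8, which had a mean of 3.15 CPM. Among the tested promoters by abundance, PRMT8 stood at percentile 19.5 and CARM1 at percentile 75.4.

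**Figure D1:**
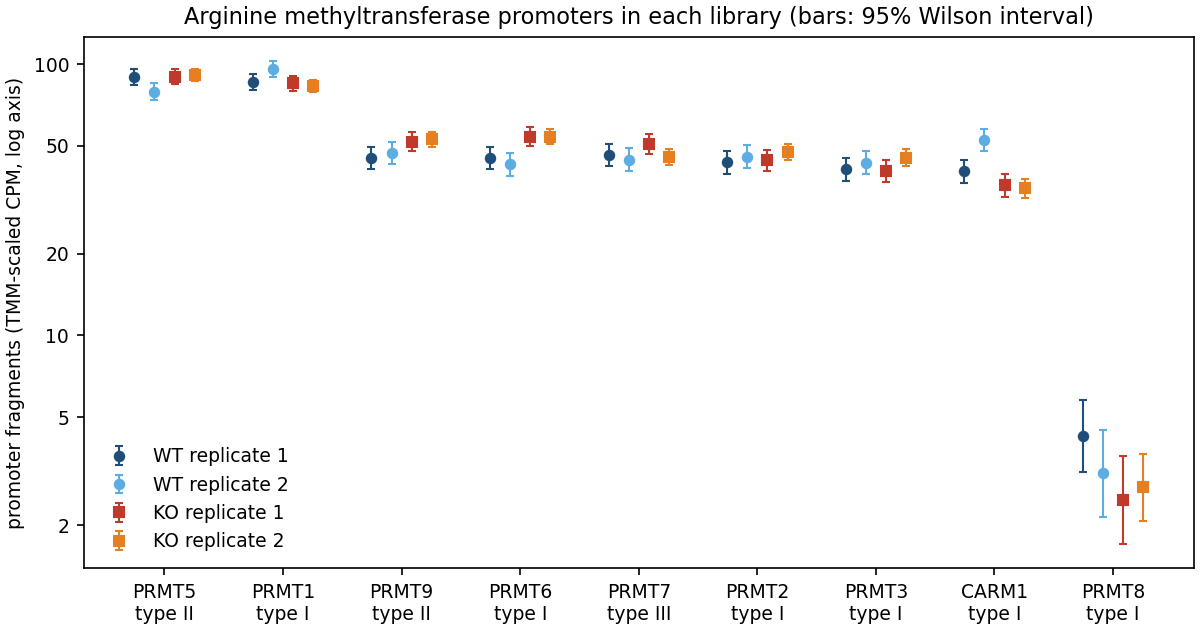
Promoter fragments of the 9 arginine methyltransferase genes in each library, as TMM-scaled CPM on a log axis, with circles for the 2 WT libraries, squares for the 2 KO libraries and bars for 95% Wilson intervals, which cover counting error only. PRMT5 and PRMT1 lie highest, 6 members lie close together near 40 to 50 CPM, and PRMT8 lies far below. The WT libraries stand apart from each other at CARM1, and the KO squares stand above the WT circles at PRMT6.

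In WT cells the 6 middle members had group means of 42.2 to 46.5 CPM, and in KO cells of 35.4 (CARM1, which was chosen for a low KO level) to 54.1 (PRMT6). CARM1 ranked 3 of 9 by its WT mean and 8 by its KO mean, and PRMT6 ranked 7 by its WT mean and 3 by its KO mean. In single libraries CARM1 ranked 3 in WT replicate 2 and 8 in WT replicate 1 and in both KO libraries.

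CARM1 (Gene ID 10498, chromosome 19) held 388 and 475 fragments in WT replicates 1 and 2 and 390 and 596 in KO replicates 1 and 2. Scaled to depth, this was 40.3 and 52.6 CPM in WT and 35.8 and 34.9 CPM in KO, or 46.5 ± 8.71 and 35.4 ± 0.581 (mean ± SD, n = 2 each). Both KO libraries lay below both WT libraries, and the WT pair spread far more than the KO pair. The fitted log2 fold change was -0.39 (SE 0.078), a KO level of 0.762 times the WT level. It is this contrast that selected CARM1, and nothing is tested on it here.

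The size of the CARM1 difference depended on which WT library was left out, and 2 WT libraries cannot show which of them is unusual. The 95% Wilson interval of WT replicate 1 (36.5 to 44.5 CPM) did not overlap that of WT replicate 2 (48.1 to 57.6), while it overlapped that of KO replicate 1 (32.4 to 39.5) and KO replicate 2 (32.3 to 37.9). Of the 9 members, CARM1 was the one whose WT intervals did not overlap, and at no member did the KO intervals fail to overlap. Among 16308 promoters with a mean count of at least 100, 2.25% had WT intervals that did not overlap, and 2.01% differed between the WT libraries by at least as much as CARM1 (0.38 on the log2 scale). The log2 fold change was -0.19 without WT replicate 2 and -0.58 without WT replicate 1, against -0.39 without KO replicate 1 and -0.37 without KO replicate 2.

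PRMT6 (Gene ID 55170, chromosome 1), a nuclear enzyme that methylates histone H3 at a residue near the methylated lysine of active promoters, was the member called among the other 8. It held 434 and 386 fragments in WT replicates 1 and 2 and 589 and 923 in KO replicates 1 and 2, which came to 45.1 and 42.8 CPM in WT and 54.0 and 54.1 in KO. The means were 43.9 ± 1.64 in WT and 54.1 ± 0.0720 in KO, and the groups did not overlap. The log2 fold change was 0.30 (SE 0.073, 95% interval 0.16 to 0.44, adjusted p = 0.00483 by edgeR), or 1.23-fold higher in KO. The call was lost under total-count scaling (0.43, adjusted p = 0.428) and loess scaling on abundance (0.23, adjusted p = 0.0726), with DESeq2 (0.30, adjusted p = 0.626), without KO replicate 2 (0.30, adjusted p = 0.165) and without WT replicate 2 (0.26, adjusted p = 0.103), while the direction held in each.

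Across the whole table, edgeR called 4.45% of 27647 tested promoters, 3.45% higher and 0.995% lower in KO, and 1 call among 8 members is too few to be told from that share. This share belongs to the fit used here. The study tested small windows, summarised them per promoter and reported far fewer differentially accessible genes at the same threshold. At an unadjusted p under 0.05 there were 2 of the 8, PRMT6 and PRMT9, beside 20.3% of all tested promoters. The median log2 fold change of the 8 was 0.063, beside -0.017 over all tested promoters. The groups did not overlap at 5 of the 8, with KO above at 3 and below at 2, and at 50.6% of all tested promoters.

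PRMT9 (Gene ID 90826, chromosome 4), a type II enzyme that methylates a splicing factor, came next in size among the members higher in KO. Its CPM was 45.1 and 47.1 in WT and 51.9 and 52.9 in KO, without overlap between the groups. The log2 fold change was 0.19 (SE 0.073, 95% interval 0.047 to 0.33), which did not pass over the whole table (adjusted p = 0.107 by edgeR).

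The most accessible members, PRMT5 and PRMT1, did not pass the test between the groups. PRMT5 (Gene ID 10419, chromosome 14) had 89.8 and 79.3 CPM in WT and 90.0 and 91.5 in KO, so that the lower KO library and the higher WT library were level to within counting error. Its log2 fold change was 0.10 (SE 0.064, 95% interval -0.024 to 0.23, adjusted p = 0.363), and it was 0.016 without WT replicate 2 and 0.20 without WT replicate 1. PRMT1 (Gene ID 3276, chromosome 19) had 85.9 and 96.4 CPM in WT and 85.3 and 83.0 in KO. Its log2 fold change of -0.12 (SE 0.064, 95% interval -0.24 to 0.0088, adjusted p = 0.285) was -0.032 without WT replicate 2, -0.20 without WT replicate 1 (adjusted p = 0.0742), and -0.20 with an adjusted p of 0.0411 under loess scaling. Relative to the median of all promoters it was -0.099 with TMM and -0.10 with total counts.

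PRMT2, PRMT3 and PRMT7 overlapped between the groups. PRMT2 (Gene ID 3275, chromosome 21), which binds nuclear receptors, had 43.5 and 45.6 CPM in WT and 44.3 and 47.6 in KO (log2 fold change 0.053, SE 0.074, 95% interval -0.092 to 0.20, adjusted p = 0.720). PRMT3 (Gene ID 10196, chromosome 11) had 41.0 and 43.4 CPM in WT and 40.4 and 45.3 in KO (0.035, SE 0.076, 95% interval -0.11 to 0.18, adjusted p = 0.827). PRMT7 (Gene ID 54496, chromosome 16) had 46.4 and 44.5 CPM in WT and 50.9 and 45.6 in KO (0.073, SE 0.074, 95% interval -0.072 to 0.22, adjusted p = 0.603). Loess scaling turned the sign of PRMT2 (-0.013) and PRMT3 (-0.029).

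PRMT8 (Gene ID 56341, chromosome 12) was too shallow to resolve a change of the size seen at CARM1. It held 41 and 28 fragments in WT and 27 and 47 in KO, or 4.26 and 3.10 CPM in WT and 2.48 and 2.76 in KO. The KO libraries lay below the WT libraries, yet the log2 fold change of -0.48 had an SE of 0.26 and a 95% interval of -0.99 to 0.024 (adjusted p = 0.272). It was -0.23 without WT replicate 1 and under loess scaling, and -0.68 without WT replicate 2.

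**Figure D2:**
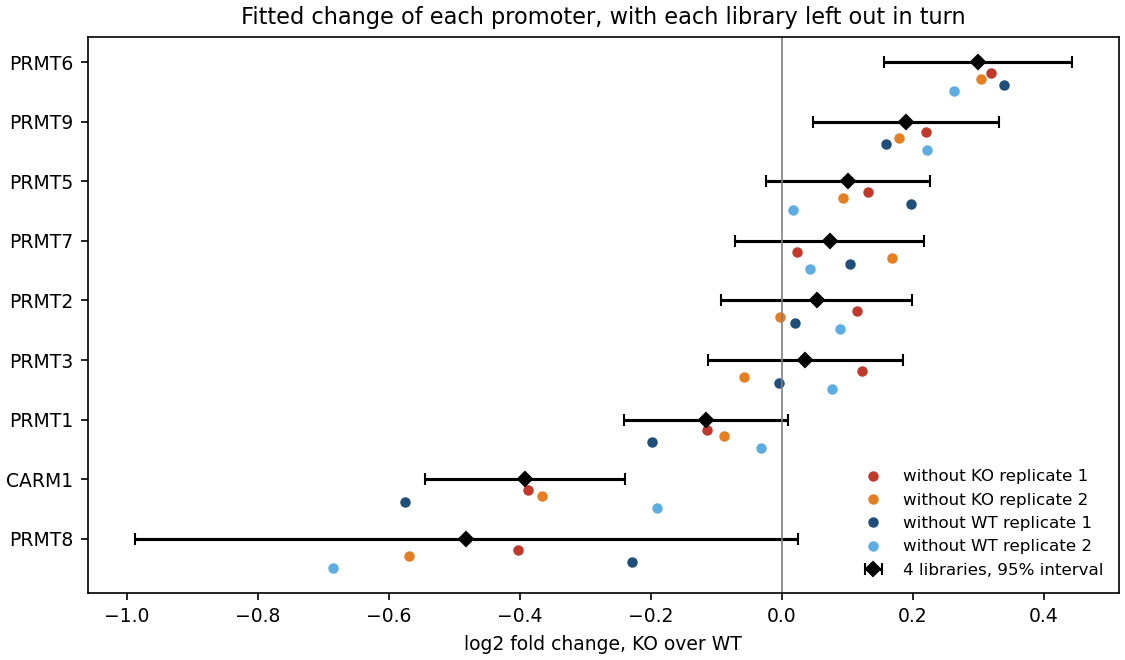
Log2 fold change of each member, KO over WT, from the fit on all 4 libraries (diamonds with 95% intervals) and from fits that leave out 1 library each (coloured points). PRMT6 stays between 0.26 and 0.34 and CARM1 moves between -0.58 and -0.19, depending on which WT library is left out.

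Some members share their promoter window with a second gene. PRMT5 and PRMT5-DT, a divergent transcript, start within 2 kb of each other and differed by at most 0.714% in fragment count in every library, and PRMT7 and SLC7A6OS by at most 0.447%. Their fragments cannot be assigned to one gene or the other. PRMT9 and both genes next to it had similar counts (TMEM184C within 7.60% and ARHGAP10 within 10.1% in every library) although their listed starts are over 2 kb apart, with log2 fold changes of 0.20 and 0.19. PRMT1 and SCAF1 (within 11.3%) were over 2 kb apart as well, and SMPD3 beside PRMT7 lay within 15.7%.

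The promoters next to CARM1 in gene order gave their own values. The nearest tested rows, HIKESHIP2 and YIPF2, had log2 fold changes of -0.24 (SE 0.26) and -0.085 (SE 0.087), with adjusted p of 0.631 and 0.605, and differed from CARM1 in count. Of the 50 tested rows within 25 on either side, 46 had a log2 fold change below 0, against 53.3% of all tested promoters, with a median of -0.11. CARM1 was lower than all 50, with a difference of -0.28 from their median. It was chosen for a low value in this same contrast, so its place among them is a description. Within 15 rows on either side 27 of 30 were below 0, from -0.36 to 0.093.

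The WT libraries also differed at the neighbours. Of the 30 rows within 15 of CARM1, 22 were higher in WT replicate 2 than in WT replicate 1, against 47.5% of all tested promoters. Of the 21 with a mean count of at least 100, 20 were higher, against 46.1% of all such promoters, by a median of 0.17 on the log2 scale (range -0.23 to 0.31), beside 0.38 at CARM1. Without WT replicate 2 the median of the 50 neighbours was -0.057, with 37 below 0, and 12 of them lay lower than CARM1. Total-count scaling moved the median of all promoters from -0.017 to 0.12 and took the number of neighbours below 0 to 19 of 50. Relative to the median of all promoters, the neighbours stood at -0.098 and CARM1 at -0.37 with TMM, against -0.099 and -0.38 with total counts. The part of WT replicate 2 in the values of this stretch of chromosome 19 was not tested.

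**Figure D3:**
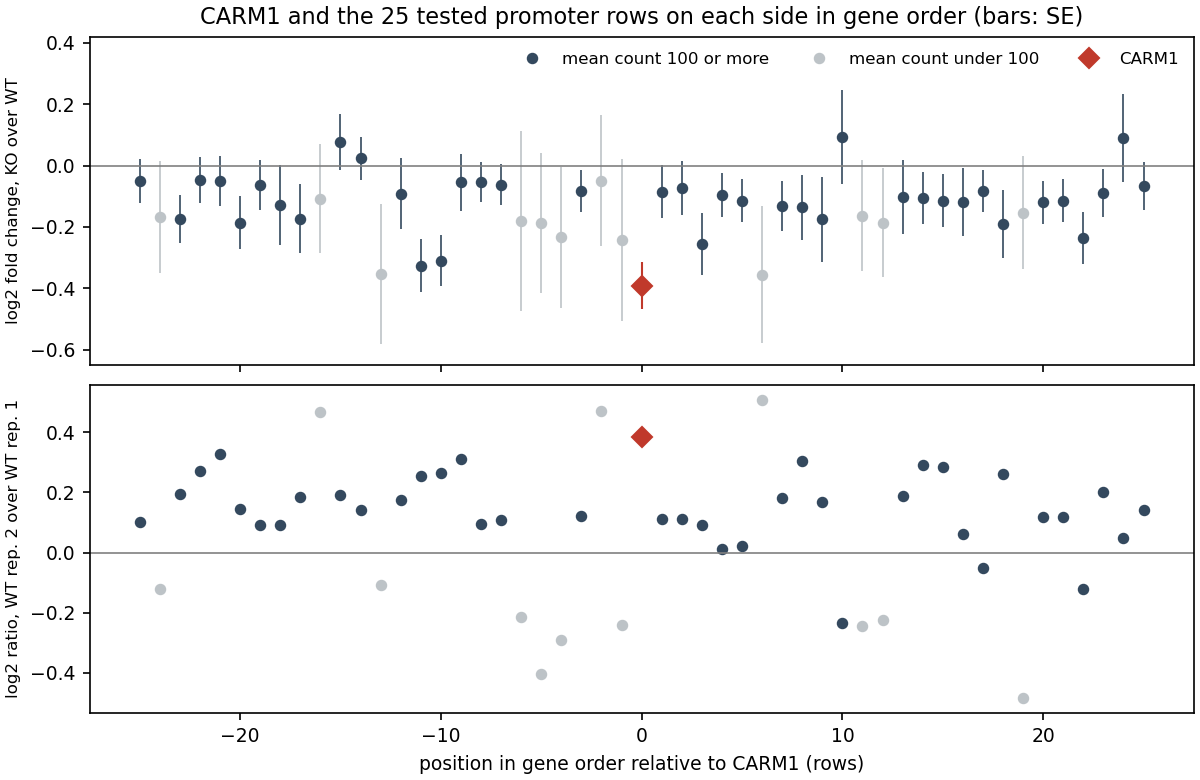
CARM1 (red diamond) and the 25 tested promoter rows on each side of it in gene order, with the log2 fold change, KO over WT, and its SE in the upper panel and the log2 ratio of WT replicate 2 over WT replicate 1 in the lower panel. Dark points have a mean count of 100 or more and grey points fewer. In the upper panel 46 of the 50 neighbours lie below 0 and none below CARM1, which was chosen by this contrast. In the lower panel most dark points lie above 0.

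Against their own neighbours within 25 rows, the other members stood as follows. PRMT6 was higher than all 50 of its neighbours, by 0.21 against their median. It lay beside NTNG1 (0.26, adjusted p = 0.141) and LINC01661 (-0.69, adjusted p = 0.106). PRMT9 was 0.12 above its neighbours, PRMT5 and PRMT7 0.081 each and PRMT2 0.052, the last with 25 rows since it lies near the end of its chromosome. PRMT1, on chromosome 19 like CARM1, lay in a stretch with a median of -0.13 and was 0.015 above it, and PRMT3 was below its neighbours (a difference of -0.026). PRMT8, with few fragments, was at -0.48 from its neighbours.

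The promoters whose pattern over the 4 libraries was most like that of CARM1, by Euclidean distance of centred log2 CPM among 16270 candidates, were ASB16, LINC01507, FBXL12, KLK8 and CALM3, at distances of 0.0281 to 0.0958. ASB16 stood at 11.0 CPM in each KO library against 12.6 and 16.3 in WT, a likeness by which it was picked. FBXL12, an F-box gene, had 36.3 and 37.8 CPM in KO and 41.4 and 53.9 in WT, close to CARM1 in level as well. FBXL12, KLK8 and CALM3 lie on chromosome 19 like CARM1, ASB16 on chromosome 17 and LINC01507 on chromosome 9. All were highest in WT replicate 2, as is CARM1, and this pattern is what picked them.

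Genes that work with the family were taken by list. In 6 lists of partners, cofactors, readers, substrates and other arginine methyltransferases, 48 tested promoters are reported. Their median log2 fold change was -0.013, beside -0.017 over all tested promoters.

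PRMT5 adaptors and regulators had a median log2 fold change of 0.18 over 5 promoters. EdgeR, DESeq2 and limma called 0 of them, and 3 had an unadjusted p under 0.05 with edgeR, all higher in KO, as had 11.5% of all tested promoters. The share of all promoters in either direction, 20.3%, is the background for such counts in the other lists. CLNS1A, the pICln adaptor that brings Sm proteins to PRMT5, had a fitted change of 0.22 on the log2 scale (SE 0.084, adjusted p = 0.109), and RIOK1, the adaptor for other substrates, 0.18 (SE 0.069, adjusted p = 0.113). WDR77, the obligate partner, was at -0.052 (SE 0.073) and COPRS, a histone adaptor, at 0.048 (SE 0.097). The 3 promoters with an unadjusted p under 0.05 by edgeR were all lower in WT replicate 2 than in WT replicate 1. CLNS1A had 29.6 against 33.5 CPM and RIOK1 51.6 against 58.8, while WDR77 and COPRS were higher in WT replicate 2. The part of WT replicate 2 in these values was not tested.

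Coactivator partners of CARM1 and PRMT1 had a median of -0.0064 over 8 promoters. The 3 tools called 0 of them, with 1 at an unadjusted p under 0.05 in edgeR. The p160 coactivators NCOA1, NCOA2 and NCOA3 were at 0.0055, 0.090 and -0.066, and the acetyltransferase EP300 at -0.10 (SE 0.069). S-adenosylmethionine supply and turnover had a median of 0.010 over 8, again with 0 called by the 3 tools and 3 at an unadjusted p under 0.05 in edgeR. MAT2A, which makes the methyl donor, was at -0.029, its regulator MAT2B at 0.0067, the liver form MAT1A at 0.049, and AHCY, which clears the product S-adenosylhomocysteine, at -0.14 (SE 0.12).

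Among readers and genes of arginine demethylation or citrullination, 1 of 11 tested promoters was called by edgeR and 0 by DESeq2 and limma. EdgeR called 4.45% of all tested promoters, a share from which 1 call in such a list cannot be told. PADI4, a peptidylarginine deiminase that converts arginine to citrulline, held 50 and 32 fragments in WT and 33 and 38 in KO, or 5.19 and 3.54 CPM against 3.03 and 2.23, and its log2 fold change was -0.78 (SE 0.25, adjusted p = 0.0433 by edgeR). This rests on few fragments. The edgeR call was lost with total counts (adjusted p = 0.457), loess scaling (0.296) and thinning to equal nuclear depth (0.114). It was also lost with a replicate block in the model (0.0779) and with the edgeR 4 fit (0.0865). It held without the filter, without mitochondrial rows, with DESeq2 size factors and with the robust fit. The change was -0.48 without WT replicate 1, -0.53 without KO replicate 2 and -1.03 without WT replicate 2. TDRD3, a Tudor domain reader of asymmetric dimethylarginine, was at 0.15 (SE 0.063, adjusted p = 0.135), and SMNDC1 at 0.0061. SMN1 and SMN2 are near-identical copies, held at most 6 fragments in any library and were not tested.

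The 14 substrates reported had log2 fold changes of -0.11 to 0.11, with a median of -0.029. The Sm proteins SNRPB, SNRPD1 and SNRPD3 were at -0.013, 0.11 and -0.086 and fibrillarin, FBL, at -0.020.

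For comparison, edgeR called 1 of 27 histone lysine methyltransferases, beside 4.45% of all tested promoters. This was SETDB2, at 107 and 94.4 CPM in WT and 118 and 117 in KO (log2 fold change 0.22, SE 0.062, adjusted p = 0.0182). It was 0.13 without WT replicate 2 (adjusted p = 0.374) and 0.13 under loess scaling (adjusted p = 0.231), and the call was also lost without KO replicate 1 (adjusted p = 0.0585), without KO replicate 2 (adjusted p = 0.198) and after thinning (adjusted p = 0.0615). DESeq2 and limma called 0, and 3 had an unadjusted p under 0.05 in edgeR. Their median was 0.013, and KMT2A, KMT2B, KMT2C and KMT2D were at 0.11, -0.035, 0.013 and 0.047. Outside the family, NDUFAF7, a mitochondrial arginine methyltransferase, was at 0.23 (SE 0.075, adjusted p = 0.0551), and METTL23 at -0.034 (SE 0.071).

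**Figure D4:**
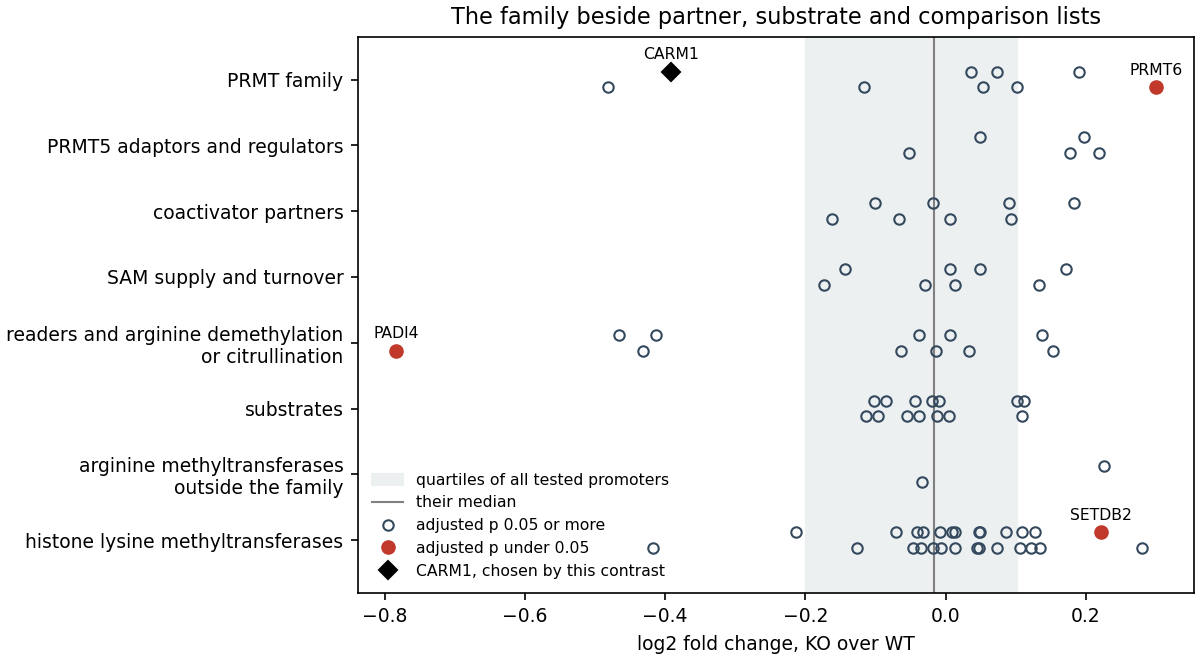
Log2 fold change, KO over WT, of the tested promoters reported from the arginine methyltransferase family and from 7 lists, where filled circles have an adjusted p under 0.05, open circles do not, and the black diamond is CARM1, chosen by this contrast. The grey band spans the quartiles of all tested promoters, -0.20 to 0.10, and the line is their median. PRMT6, SETDB2 and PADI4 are the filled points.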

How the data were processed

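ATAC-seq of 2 WT and 2 MORC2 KO libraries gave 1 table. The authors trimmed paired reads, aligned them with bowtie2 to the telomere-to-telomere assembly CHM13, kept proper pairs of high mapping quality, removed duplicates with Picard and deposited raw fragment counts per promoter, 1 row per NCBI Gene ID, not normalised. The labels name featureCounts (Subread 2.0.6) and the methods name csaw, which counted fragment midpoints in small windows, and which of them made this table is not given in the sources used here. RefSeq (GRCh38.p14) gave symbols for 28763 of 28775 IDs, gene order and promoter sequence. The pooled WT peak list was not used, since its assembly could not be placed on genes here.

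filterByExpr kept 27647 rows and removed 1128. Counts were scaled by TMM and tested in edgeR 4.0.16 under R 4.3.3 by quasi-likelihood (legacy fit, no covariates), with Benjamini-Hochberg adjustment over all rows and a threshold of 0.05. Standard errors came from the F statistics. Alternatives used limma 3.58.1, DESeq2 1.42.0 and others named in the closing part, and the code was tested on simulated counts. Single values were not tested, as 2 libraries a side allow no exact two-sided permutation p under 0.333. The study describes the WT replicates as independent and the KO lines as made separately. Chi-square per degree of freedom was 1.20 between KO and 1.33 between WT libraries. Wilson intervals cover counting error only.

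Members and lists were chosen with earlier results of these data known. Named are the members, rows next to them in gene order (and those within 25% in count), the called ones and up to 4 others in list order of each list, and the 5 promoters most like CARM1. A gene of the substrate list is not reported here, and was left out of the list counts after its values were known, which lowers the number of calls in them. SETD8, an older symbol of KMT5A, had no row of its own.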

Additional observations from a re-analysis of the deposited data

How the results depend on the processing

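EdgeR called 1229 promoters (954 higher in KO). The number was 20 with total counts, 390 with loess offsets (213 higher, 54.6%, against 77.6%), 787 at a mean count of at least 50 (66.1% higher), 717 with limma-trend, 668 after thinning to 6119609 nuclear fragments (84.7% higher), 7 with DESeq2 with or without its filter (all higher), 2249 at an adjusted p under 0.1 and 355 at 0.01, and leaving out 1 library gave 41 (without KO replicate 2) to 1637 (without WT replicate 1), with 230 without WT replicate 2. PRMT6 was called in the main fit and in 9 of 13 alternative fits on 4 libraries, and its log2 fold change stayed within 0.23 to 0.43. Of the other 8 members, 0 were called with total counts (2 before adjustment of p at 0.05) and by DESeq2 with or without its filter (1), and leaving out 1 library gave 0 to 1, with 0 without KO replicate 2 (1 unadjusted) or WT replicate 2 (3 unadjusted). Of the 75 list promoters reported, 2 were called, against 0 with total counts (7 unadjusted), limma-trend (13 unadjusted) and DESeq2 with or without its filter (5 unadjusted), 1 with loess offsets (SETD1A), 1 with the edgeR 4 fit (SETDB2), 1 after thinning (MTAP), and 0 (without KO replicate 2, 10 unadjusted) to 8 (without WT replicate 1) with 1 library left out, with 1 without WT replicate 2 (PADI4). CARM1 ran from -0.58 to -0.19 with 1 library left out, the latter without WT replicate 2, and from -0.45 to -0.26 over the 13 alternative fits. Relative to its neighbours it ran from -0.40 to -0.13. The sign turned for PRMT1 with total counts (0.017), where the median of all promoters moved from -0.017 to 0.12 and PRMT1 relative to it stayed at -0.10, for PRMT2 with loess offsets (-0.013) and without KO replicate 2 (-0.0022), and for PRMT3 with loess offsets (-0.029), without KO replicate 2 (-0.058) and without WT replicate 1 (-0.0044), so that with 1 library left out PRMT2 ran up to 0.11 and PRMT3 up to 0.12 (both without KO replicate 1), and the cause was not tested. Over the 8 other members, 95 of the values under other settings kept direction and side of the threshold. Of the rest, 4 lost a call, 1 gained one and 3 turned sign. In the main fit 7 of the 8 members were not called, so for these the same side means still uncalled. With 1 library left out, 3 values turned sign.

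Same-numbered libraries did not deviate together over the tested promoters (correlation -0.00027). Chi-square per degree of freedom was 1.20 between KO and 1.33 between WT libraries, so much of each deviation was counting error. The correlation therefore cannot exclude a pairing by replicate number. A replicate block in the model left 765 calls (553 higher), and 0 of the list promoters. At an unadjusted p under 0.05 there were 13 of the 75, beside 5247 of 27647 tested promoters. PRMT6 stood at 0.30 with an adjusted p of 0.0158 by edgeR in that fit, and CARM1 at -0.40.

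Depth limited PRMT8 and PADI4, which held at most 50 fragments in any library, and 2 libraries per group limited every p.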
